A study of Homo sapiens with 36 samples.

Results

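The androgen response of the LNCaP sgT33-5 line is the difference between 3 libraries of cells given R1881 and 3 libraries of the same line given DMSO. They were chosen by their column names and are 6 of the 36 libraries of the series. LNCaP is an androgen-dependent prostate cancer cell line from a lymph node metastasis. The series title concerns loss of TRIM33, so the name sgT33-5 is taken here to mean a TRIM33 guide and NT3 a guide with no target, although the labels expand neither name. All cells used here were kept for 3 days in medium with 5% charcoal-stripped serum, which is depleted of steroids. They then received either 5 nM R1881, a synthetic androgen that cells degrade slowly, or its solvent DMSO, for 6 h. The response was also set beside that of the LNCaP lines sgT33-5_MC_C2 (called C2), sgT33-5_MC_F2 (called F2) and NT3, each with R1881 and with DMSO in 3 libraries. The labels do not say whether the sgT33-5 line is a pool or a clone, nor whether its replicates were separate cultures. The p-values therefore measure the spread between libraries. That spread was estimated over all 24 LNCaP libraries in a single fit, and not over the 6 sgT33-5 libraries alone.

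Androgens are steroid hormones that enter the cell and change transcription through enhancers, which FOXA1 and HOXB13 also bind. Such enhancers often hold a pair of inverted hexamers called the androgen response element. In luminal prostate cells the best known androgen targets make secreted kallikreins, transporters and lipid enzymes, while another set of genes falls.

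Polyadenylated RNA was counted per gene, with 14823244 to 17647630 counts in the 6 libraries. Levels are given as CPM, which are counts per 1000000 counts of the TMM-adjusted library total. Genes of the mitochondrial chromosome took 2.40%, 6.11% and 5.21% of the counts in R1881 replicates 1 to 3, against 4.97%, 5.73% and 2.14% in DMSO replicates 1 to 3. The range was 4.16% to 6.66% in the other LNCaP lines, so R1881 replicate 1 and DMSO replicate 3 stood apart, with lower shares. The summed level of 11 luminal prostate markers was 5408, 5854 and 5878 CPM with R1881, against 3209, 3297 and 3268 CPM with DMSO. None of 8 leukocyte markers and only 1 of 8 basal markers had enough counts to be tested, and KRT5, the basal keratin, was at 0 in all 6 libraries. In bulk RNA, a change in the share of cells that express a gene cannot be told from a change per cell.

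TRIM33, a ubiquitin ligase of the TIF1 family and the presumed target of the guide, lies on chromosome 1 at 114392790 to 114511203 (GRCh38). Its level was 52.5, 60.5 and 66.0 CPM in sgT33-5 with R1881, against 46.1, 53.4 and 44.2 CPM with DMSO. The groups overlapped: DMSO replicate 2 lay above R1881 replicate 1. The log2 fold change was 0.32 (SE 0.080, adjusted p = 0.00781, edgeR), and the call was lost without replicate 3 of either treatment (0.24 without the R1881 library, 0.26 without the DMSO library). Against NT3, TRIM33 was lower in sgT33-5 by a log2 of -1.08 with R1881 (SE 0.077, adjusted p = 9.95e-10) and -0.96 with DMSO (SE 0.079, adjusted p = 1.44e-08). TRIM33 transcript thus remained present in the line labelled sgT33-5. A guide that alters the coding sequence need not lower the transcript, and the reads were not used here to look for edits.

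R1881 changed 1936 of 15519 genes tested in sgT33-5, which is 12.5%, at an adjusted p under 0.05. Of these, 1052 rose (6.78%) and 884 fell (5.7%), with a median log2 change of 0.45 among those that rose and -0.35 among those that fell. Over all genes tested, called or not, every R1881 library lay above every DMSO library for 2162 genes (13.9%) and below for 2036 (13.1%). These included 1016 of the genes that rose and 865 of those that fell, which the call itself favours. At a change of at least 2-fold, 230 genes rose (1.48%) and 81 fell (0.522%). At 4-fold or more, 98 rose and 9 fell. Without the 2 libraries of low mitochondrial share, 775 genes rose and 613 fell, and 1288 of the 1936 calls were shared. R1881 replicate 1 was the lowest of the 3 R1881 libraries for 48.0% of the 892 genes that rose and averaged at least 5 CPM. It was the lowest for 32.4% of genes not called. R1881 replicate 3, with a mitochondrial share of 5.21%, was the highest for 47.1% of the 892, against 32.4% of genes not called. DMSO replicate 3, with the other low share, was the highest DMSO library for 37.7% of the 892, against 36.4% of genes not called. The part of the mitochondrial share in these values was not tested.

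**Figure D1:**
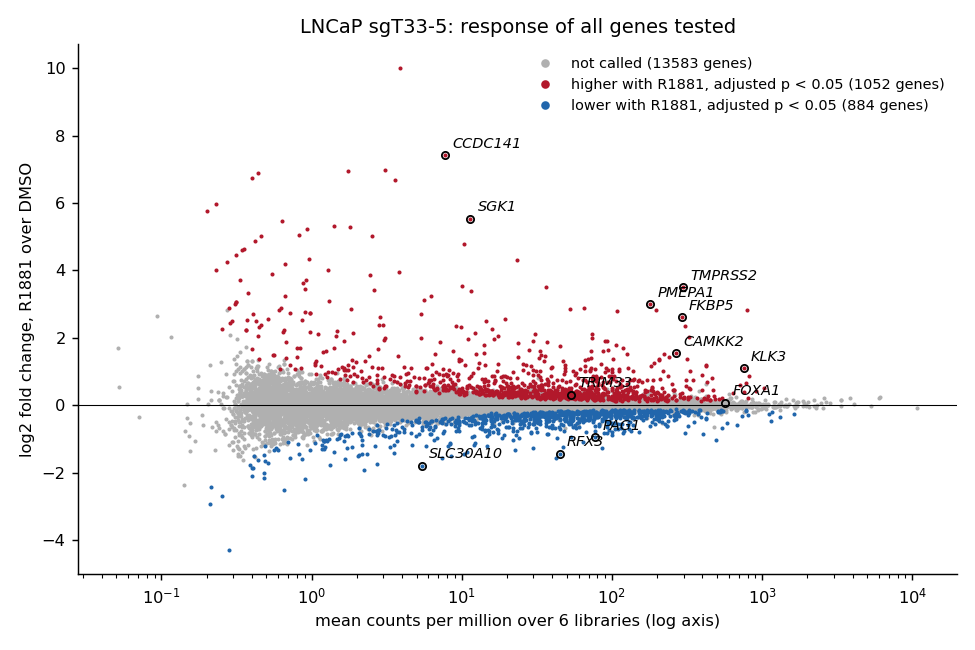
Log2 fold change of R1881 over DMSO in LNCaP sgT33-5 (vertical axis) against the mean level over the 6 libraries in CPM (horizontal log axis), with 1 point per gene tested. Red points are the 1052 genes that rose and blue points the 884 that fell; circles mark named genes, and the fitted values of genes with no counts in DMSO depend on the model's prior count.

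Protein-coding genes made up 12465 of the genes tested, and 960 of them rose and 824 fell, or 14.3% in all. Of 2288 long noncoding RNAs, 73 rose and 51 fell, or 5.42%. The median level of the noncoding RNAs was 1.55 CPM, against 34.0 CPM for the protein-coding genes, and how far the lower counts limited the calls among them was not tested.

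The classic prostate targets responded clearly. TMPRSS2, a membrane serine protease, measured 522, 601 and 520 CPM with R1881, against 48.1, 48.8 and 48.0 CPM with DMSO (log2 3.50, SE 0.145, adjusted p = 1.31e-12). The groups lay far apart, and the 3 DMSO libraries were nearly equal. SLC45A3, a solute carrier whose product is also known as prostein, reached 317, 366 and 356 CPM with R1881, against 51.0, 51.7 and 45 CPM with DMSO (log2 2.81).

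The neighbouring kallikreins KLK3, which encodes prostate-specific antigen, and KLK2 differed in the size of their response. KLK3 measured 1029, 1125 and 938 CPM with R1881, against 495, 487 and 455 CPM with DMSO (log2 1.10, SE 0.200, adjusted p = 0.000872). KLK2 measured 367, 505 and 668 CPM with R1881, against 80.0, 82.2 and 140 CPM with DMSO (log2 2.35, SE 0.343, adjusted p = 0.000110). The groups did not overlap for either gene, but KLK2 varied more: its R1881 replicate 1 was the lowest and its DMSO replicate 3 the highest of their groups. These are the libraries with the low mitochondrial share, and the part of that share in the KLK2 values was not tested. KLK2 and KLK3 are close paralogs whose reads a counter could assign to either, so their separate values are uncertain.

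**Figure D2:**
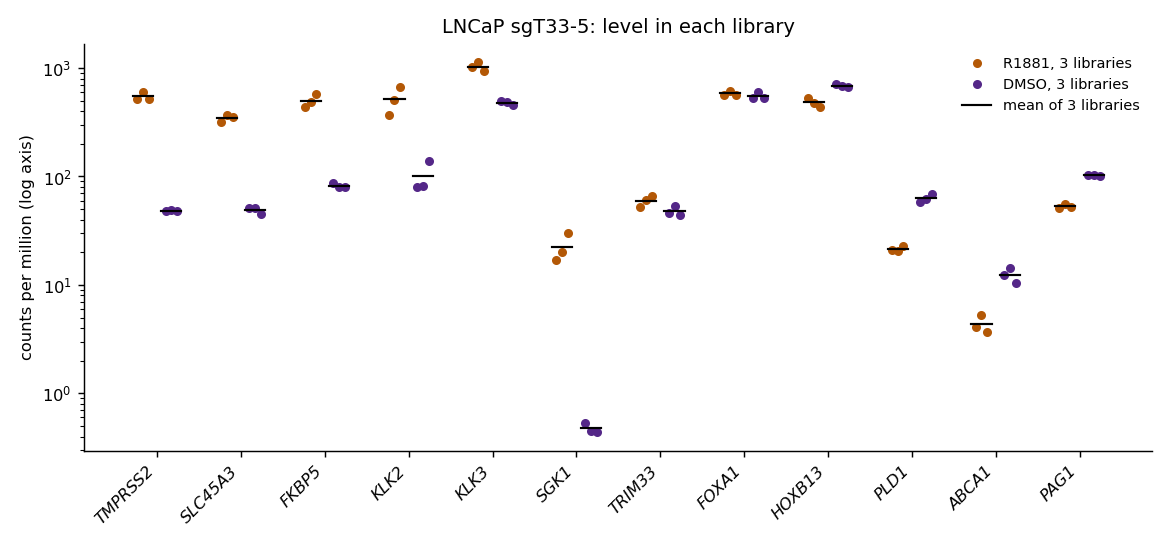
Level of 12 genes in each of the 6 libraries of LNCaP sgT33-5, in CPM on a log axis, with R1881 libraries (orange) left of DMSO libraries (purple); points are libraries and bars are means of 3. TMPRSS2 and SLC45A3 are well apart between treatments, TRIM33 and FOXA1 overlap, and PLD1, ABCA1 and PAG1 are lower with R1881.

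The promoters of these 2 kallikreins are shown because they carry the textbook androgen response element of the prostate. Each run is the 250 bases before the RefSeq start of the gene, 5′ to 3′ on the + strand, from the RefSeq table (GRCh38.p14). Capitals mark the best match to a 15-letter motif made of AGAACA, 3 letters of any kind (N) and TGTTCT. The motif is its own reverse complement, so a search of either strand covers both.
KLK3, chr19:50854665-50854914: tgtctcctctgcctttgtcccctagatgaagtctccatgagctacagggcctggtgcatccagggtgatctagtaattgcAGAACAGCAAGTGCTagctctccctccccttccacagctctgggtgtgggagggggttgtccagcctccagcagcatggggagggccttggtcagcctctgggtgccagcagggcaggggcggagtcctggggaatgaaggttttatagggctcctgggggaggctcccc
KLK2, chr19:50873189-50873438: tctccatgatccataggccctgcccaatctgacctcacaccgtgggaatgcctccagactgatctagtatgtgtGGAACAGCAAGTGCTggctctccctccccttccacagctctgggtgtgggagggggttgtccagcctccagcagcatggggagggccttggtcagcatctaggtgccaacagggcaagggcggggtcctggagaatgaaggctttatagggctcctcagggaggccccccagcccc
The match began 170 bases before the start in KLK3 and 176 bases before it in KLK2. It had 2 mismatches to the 12 fixed letters in KLK3 and 3 in KLK2.

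The same motif was searched in all promoter windows, which run from 250 bases before to 50 bases after each start. Of the 230 genes that rose at least 2-fold, 149 had 239 windows in the table, and 9 windows (3.77%) held the motif with at most 2 mismatches. Of the 81 genes that fell at least 2-fold, 50 had 74 windows, and 1 (1.35%) held it. The share was 0.691% of the 15920 windows of all genes tested and 1.41% of all 35116 windows in the table. The half-site AGAACA, on either strand, was in 14.2% of the windows of genes that rose at least 2-fold, 14.9% of those of genes that fell at least 2-fold, 9.77% of those of all genes tested and 14.8% of all windows in the table. A match is a description of letters, not evidence of binding, and most known androgen-bound sites lie in distant enhancers outside these windows.
Besides KLK3, 8 windows of 7 genes that rose at least 2-fold held the motif with at most 2 mismatches. Those of LINC03007, LINC00836 and PNLIPRP3 belong to genes that averaged only 0.253, 0.294 and 0.969 CPM. How far genes of so few counts entered the set through their R1881 libraries was not tested. The 4 windows whose genes averaged over 1 CPM are printed below, each chosen after its values were seen, with letters that match the motif in capitals.
PMEPA1, chr20:57710801-57710815, - strand: tGAAgAatgTGTTCT
NEDD4L, chr18:58149131-58149145, + strand: AaAACAgagTGTaCT
FAM107A, chr3:58587221-58587235, - strand: AGgACActgTGTTCT
PCSEAT, chr21:41580381-41580395, + strand: gGAAtAgctTGTTCT
PMEPA1, which encodes a membrane protein that dampens TGF-beta signalling, rose by a log2 of 3.00, with 285, 348 and 329 CPM in R1881 libraries, against 38.2, 42.6 and 39.5 CPM in DMSO libraries. NEDD4L, a ubiquitin ligase that limits sodium channels, rose by a log2 of 1.01 (mean level 219 CPM). FAM107A (1.92) and the noncoding RNA PCSEAT (5.30) averaged only 1.64 and 1.81 CPM.

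Genes that androgens and glucocorticoids both regulate gave some of the steepest rises. Of 16 tested from a list of such genes, 9 rose and 1 fell, with a median log2 change of 0.82, where all genes tested had a median of -0.0009. Over all genes tested, 6.78% rose and 5.7% fell. SGK1, a kinase that promotes sodium uptake and survival, measured 17, 20 and 30.1 CPM with R1881, against 0.537, 0.455 and 0.438 CPM with DMSO (log2 5.54, SE 0.359, adjusted p = 3.26e-10). FKBP5, a co-chaperone of steroid receptors, measured 439, 481 and 581 CPM with R1881, against 86.6, 79.5 and 80.3 CPM with DMSO (log2 2.61, SE 0.088, adjusted p = 1.03e-15). Neither gene's groups overlapped, and R1881 replicate 3 was the highest library for both. ZBTB16, a zinc finger repressor, rose by 2.79, ERRFI1, an inhibitor of EGFR, by 2.1 and PER1, a clock gene, by 1.92. PIK3R1, the regulatory subunit of PI3-kinase, fell by 0.39, and 2 members fell without R1881 replicate 3. TSC22D3, a well known glucocorticoid target, had a log2 change of -0.67 that did not pass the test.

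Of 99 tested members of a list of androgen-induced genes, 62 rose and none fell at an adjusted p under 0.05 (edgeR), with a median log2 change of 0.36. The share that rose over all genes tested was 6.78%. Besides the genes above, MAF, a bZIP transcription factor, rose by 3.51, ELL2, an elongation factor, by 1.90, CAMKK2, a kinase upstream of AMPK, by 1.54, and ABCC4, an efflux pump, by 1.53. NDRG1, a stress-responsive gene, measured 80.2, 109 and 112 CPM with R1881, against 39.9, 39.5 and 37.7 CPM with DMSO (log2 1.36, SE 0.196, adjusted p = 7.17e-05). Its R1881 replicate 1 was the lowest of the group but still above every DMSO library. Without the 2 libraries of low mitochondrial share, 59 of the 99 rose and the median was 0.47.

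Several genes were at or near 0 in DMSO. SLC2A3, a glucose transporter, had 6.10, 8.02 and 9.00 CPM with R1881, and no count in any of the 3 DMSO libraries. Set against a floor of 3 counts per library (up to 0.201 CPM), it was at least 38.3-fold higher with R1881, though its reads may be shared with its near-identical paralog SLC2A14. SLC26A3, an anion exchanger, was also at 0 in DMSO and was at least 3.98-fold higher with R1881. CCDC141, a coiled-coil gene, had 732 counts with R1881, against 4 with DMSO, over 3 libraries each, a ratio of 187 with a 95% interval of 72.7 to 688. SLC38A4, an amino acid transporter, had 340 counts with R1881, against 3 with DMSO (ratio 116, 95% interval 39.3 to 564), and STEAP4, a metalloreductase, had 291 with R1881, against 2 with DMSO (ratio 149, 95% interval 40.8 to 1233). These exact intervals cover counting error only. CCDC141 overlaps the end of TTN in the annotation, so reads there may be shared. For genes above 5 CPM on average, F5, coagulation factor V, rose by 4.78 and LAMA1, a laminin chain, by 4.30. Their R1881 replicate 1 was again the lowest of its group, with 11.9 CPM for F5 (the others 21.1 and 27.0) and 33.2 CPM for LAMA1 (the others 44.2 and 54.9).

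Growth factor signalling genes moved in both directions. Of 18 tested, 7 rose and 3 fell, where 6.78% of all genes tested rose and 5.7% fell. IGF1R, the IGF receptor, measured 19.5, 23.8 and 31.1 CPM with R1881, against 4.36, 4.49 and 4.25 CPM with DMSO (log2 2.5, SE 0.188, adjusted p = 1.13e-09). Its adaptors IRS2 and IRS1 rose too, by 2.16 and 1.51. MET, the receptor of hepatocyte growth factor, measured 16.5, 20.1 and 19.2 CPM with R1881, against 28.8, 32.5 and 28.8 CPM with DMSO (log2 -0.69, adjusted p = 4.63e-06). ERBB3 fell by 0.32, and PRLR, the prolactin receptor, fell by 1.05, a call that was lost without the 2 libraries of low mitochondrial share. BMPR1B, a BMP receptor, rose by 3.12 (8.39, 8.59 and 13.4 CPM with R1881, against 1.21, 1.02 and 1.25 CPM with DMSO).

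Transporters and lipid genes were likewise split. Of 26 solute carriers and efflux pumps tested, 13 rose and 4 fell. This count and that of the lipid genes below are to be read beside the shares of all genes tested, 6.78% that rose and 5.7% that fell. The 4 that fell were SLC30A10, a manganese exporter (-1.79), the cholesterol exporter ABCA1 (-1.51), the bile salt pump ABCB11 (-1.46) and the sterol exporter ABCG1 (-0.73). ABCA1 measured 4.13, 5.33 and 3.68 CPM with R1881, against 12.4, 14.4 and 10.5 CPM with DMSO, with no overlap. Of 35 genes of cholesterol and fatty acid synthesis, 7 rose and 2 fell, with a median of 0.02 that was -0.0073 without R1881 replicate 1. Those that rose included SCAP, the sterol sensor (0.74), ELOVL7, a fatty acid elongase (1.23), and ACSL3, which activates fatty acids (1.0). ACLY, which makes cytosolic acetyl-CoA, fell by 0.14, and its call was lost without R1881 replicates 1 or 2 or DMSO replicates 2 or 3.

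Of 10 genes of polyamine metabolism tested, 5 rose and none fell, with a median of 0.24. Beside this count and those of the lists that follow, 6.78% of all genes tested rose and 5.7% fell. ODC1, the rate-limiting enzyme of polyamine synthesis, measured 756, 678 and 720 CPM with R1881, against 562, 540 and 576 CPM with DMSO (log2 0.36, SE 0.046, adjusted p = 2.15e-06). AMD1, which supplies aminopropyl groups, rose by 0.41, and the catabolic SAT1 and SMOX rose by 0.78 and 0.51. Enzymes of synthesis and breakdown thus both rose. Of 17 genes of glycosylation, 6 rose and 2 fell: the sialyltransferase ST6GALNAC1 rose by 2.27 and the nucleotide sugar enzyme UAP1 by 0.89, while the sialyltransferase ST3GAL1 and the transferase GALNT3 fell by 0.35 and 0.31. Of 28 genes of the secretory pathway and unfolded protein response, 3 rose and none fell. They were ERN1, the stress sensor IRE1 (0.99), SRP19 (0.34) and EDEM1 (0.20), and the count was 1 without R1881 replicate 3, 2 without DMSO replicate 2, 5 without R1881 replicate 2 and 7 without DMSO replicate 3.

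**Figure D3:**
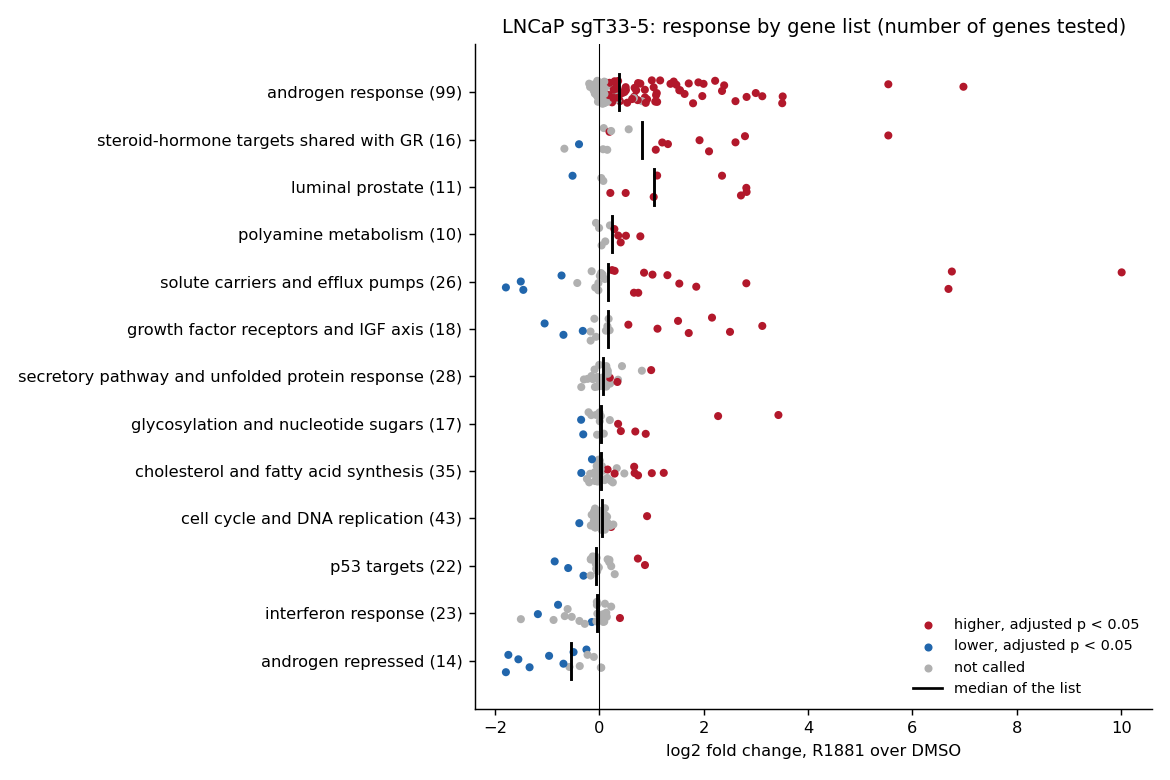
Log2 fold change of R1881 over DMSO in LNCaP sgT33-5 for the tested members of 13 gene lists; each point is a gene, coloured by its call, and the black bar is the median of the list. The androgen response list has 62 red points of 99, the androgen repressed list 8 blue points of 14, and most points of the cell cycle list are grey near 0; the value near 10 is SLC2A3, which had no counts in DMSO.

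Of the enhancer-binding factors FOXA1 and HOXB13, the first gave no call. FOXA1, a pioneer factor, measured 567, 619 and 561 CPM with R1881, against 525, 602 and 533 CPM with DMSO (log2 0.07, SE 0.078, adjusted p = 0.631), with overlapping groups. HOXB13, a homeobox factor of the prostate, fell, with 534, 478 and 433 CPM with R1881, against 718, 676 and 674 CPM with DMSO (log2 -0.52, SE 0.070, adjusted p = 4.98e-06). Its groups did not overlap. Among 25 receptor and coregulator genes tested, 5 rose and 4 fell, where 6.78% of all genes rose and 5.7% fell. The 5 were 3 without R1881 replicates 2 or 3 or DMSO replicate 3, and in the fit of only the compared libraries. GATA2, a zinc finger factor, fell by 0.43 and the coactivators NCOA3 and NCOA2 by 0.51 and 0.38, while GRHL2, an epithelial factor, rose by 1.38 and the corepressor NRIP1 rose by 0.28. Of 20 genes of H2B ubiquitination and the TIF1 family tested, 4 rose and 1 fell. Besides TRIM33 these were TRIM24, a coregulator of nuclear receptors (0.22), PAF1 (0.15), the deubiquitinase USP51 (0.91) and, as the member that fell, LEO1 of the PAF1 complex (-0.37). The TRIM24 call was lost without R1881 replicates 2 or 3 or DMSO replicates 1 or 3, that of PAF1 without any R1881 replicate or DMSO replicates 1 or 3, and that of USP51 without the 2 libraries of low mitochondrial share. RNF20 (-0.08) and RNF40 (0.05), the ligase that ubiquitinates H2B, did not pass the test.

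Among called genes of at least 5 CPM whose groups did not overlap, the 15 that fell most, with log2 changes of -1.79 to -1.18, were of varied function. PLD1, phospholipase D1, measured 20.8, 20.7 and 22.8 CPM with R1881, against 58.0, 62.5 and 68.5 CPM with DMSO (log2 -1.55, SE 0.105, adjusted p = 4.00e-11). RFX3, a transcription factor of ciliated cells, measured 22.9, 24.5 and 24.9 CPM with R1881, against 64.7, 65.0 and 66.9 CPM with DMSO (log2 -1.44, SE 0.076, adjusted p = 1.82e-13). The libraries of each group were close together and the groups far apart. NAPEPLD, which makes N-acylethanolamines, fell by 1.23, RAP2B, a small GTPase, by 1.26, BAMBI, a decoy receptor of TGF-beta signalling, by 1.34 and TNFSF15, a cytokine, by 1.26. DUSP5, a nuclear phosphatase of ERK, fell by 1.21. Among abundant genes the calcium pump ATP2B1 measured 328, 356 and 294 CPM with R1881, against 642, 734 and 606 CPM with DMSO (log2 -1.02). Of a list of 14 androgen-repressed genes, 8 fell and none rose (edgeR), with a median of -0.54, where 5.7% of all genes tested fell. The androgen-clearing enzymes UGT2B15 (-0.58) and UGT2B17 (-0.38), themselves close paralogs, did not pass the test. CAMK2N1 (-0.19, adjusted p = 0.222) and PLA2G2A (-0.15, adjusted p = 0.117) did not pass it either. The antisense RNA HOXC13-AS fell by 1.21 and CTBP1-AS rose by 3.24, but whether counting used strand is not given in the sources used here, so reads of their partner genes may be included.

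Pathways without a shared direction included Wnt and Notch genes, of which 7 rose and 5 fell among 27. The Wnt receptor FZD5 rose by 1.61 and the ligand WNT7B by 1.31, while the receptors FZD4 and FZD3 and the inhibitor RNF43 fell by 0.82, 0.75 and 0.86. Among 20 immediate early and MAPK feedback genes, 6 rose and 2 fell. FOS (-0.27) and EGR1 (0.12) did not pass the test, while JUN (0.65) and JUNB (0.79) did. The JUNB call was lost without DMSO replicate 2. Of 43 cell cycle genes, 2 rose and 1 fell: CDK6 rose by 0.91, CCND3 rose by 0.23 and CCNE2 fell by 0.39. The CCND3 call was lost without R1881 replicate 1 or any DMSO replicate, and that of CCNE2 without any R1881 replicate or DMSO replicates 1 or 3. Of the 18 clock genes, 3 rose and 2 fell, and 1 fell without R1881 replicate 2 or DMSO replicate 3. Of 22 p53 targets, 2 rose and 3 fell, and 1 rose without R1881 replicates 1 or 3 or DMSO replicates 1 or 2. Of 23 interferon genes, 1 rose and 3 fell, and 1 fell without the 2 libraries of low mitochondrial share. Of 26 glycolysis and hypoxia genes, 4 rose and 1 fell, and 2 fell without DMSO replicate 1. Of 19 TGF-beta and BMP genes, 3 rose and 2 fell. Such small counts are to be read beside the 6.78% of all genes that rose and the 5.7% that fell. Of 7 mesenchymal genes tested, 2 rose: SNAI2, with 234 counts with R1881, against 7 with DMSO (ratio 34.1, 95% interval 16.3 to 85.9), and TWIST1 (log2 1.07). None of the 13 protein-coding mitochondrial genes passed the test in edgeR, with a median log2 change of 0.20. With a library left out that median lay between -0.18, without DMSO replicate 3, and 0.52, without R1881 replicate 1, and it was -0.11 without R1881 replicate 2.

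The sgT33-5 response was set beside that of NT3 within the same fit. In NT3, 1242 genes rose (8%) and 800 fell (5.15%) with R1881. A test of the difference in response called 0 genes (0%) in edgeR, and DESeq2 also called 0, but edgeR called 26 without a filter on low counts. With the replicate number as a block edgeR called 22, of which 19 had a lower log2 change in sgT33-5 and 3 a higher one. The 0 thus depends on the settings. Without adjustment, 1206 genes (7.77%) had p under 0.05, and the smallest adjusted p was 0.616. This does not show that the lines respond alike, since the median SE of a difference was 0.113 on the log2 scale for genes of at least 5 CPM. Among the 230 genes that rose at least 2-fold in sgT33-5, the median log2 change was 1.74 in sgT33-5 and 1.89 in NT3. The choice of genes in sgT33-5 favours sgT33-5 in this pair of values. Among the 270 genes (1.74%) that rose at least 2-fold in NT3, which favours NT3 instead, the medians were 1.46 in sgT33-5 and 1.70 in NT3. Of those 270, 206 had a smaller change in sgT33-5.

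**Figure D4:**
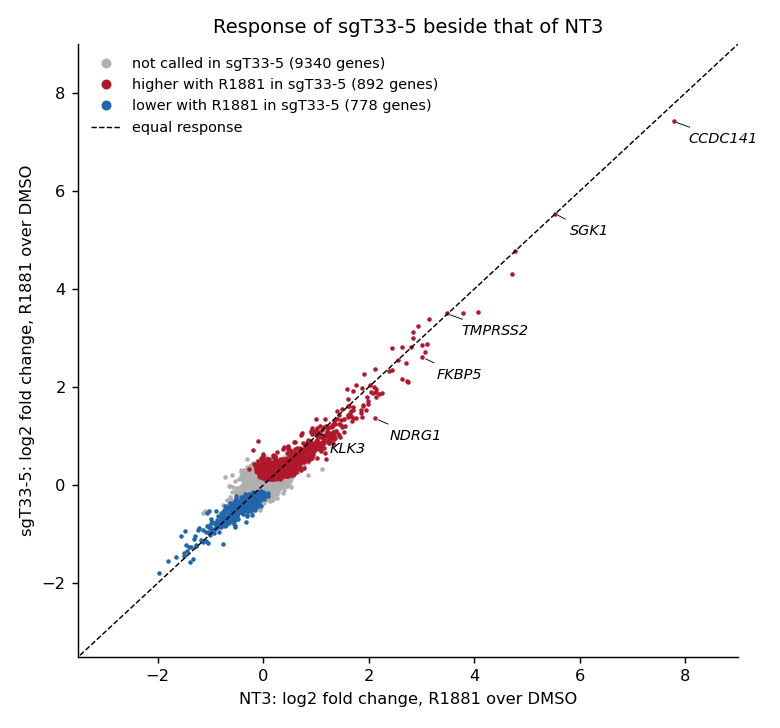
Log2 fold change of R1881 over DMSO in sgT33-5 (vertical axis) against that in NT3 (horizontal axis) for the 11010 genes of at least 5 CPM on average, coloured by the call in sgT33-5; the dashed line marks equal responses. Most genes lie near the line, and NDRG1 and FKBP5 lie below it.

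Members of the androgen response list, taken without regard to size, had a median response of 0.36 in sgT33-5, 0.29 in C2, 0.45 in F2 and 0.60 in NT3. The signed log2 change was lower in sgT33-5 than in NT3 for 81 of the 99, and for 8069 of all 15519 genes tested. It was lower for 71 of the 99 and 8236 of 15775 when both libraries of low mitochondrial share were left out. A lower signed change is not always a smaller response, since a more negative change in sgT33-5 also counts, as for SCD (-0.20 in sgT33-5 and -0.15 in NT3). FKBP5 had a response of 2.61 in sgT33-5 and 3.02 in NT3, and NDRG1 had 1.36 in sgT33-5 and 2.12 in NT3, neither passing the test of the difference. KLK3 had 1.10 in sgT33-5 and 0.99 in NT3, and TMPRSS2 had 3.50 in sgT33-5 and 3.48 in NT3. The secretory list had a median of 0.06 in sgT33-5 (-0.01 without R1881 replicate 3) and 0.15 in NT3. The signed change was lower in sgT33-5 for 23 of its 28 members, and for 5 of 11 in the luminal list. Without the 2 libraries of low mitochondrial share these counts were 21 of 28 and 3 of 11. The secretory list shares DNAJB9, SEC24D, LMAN1, SPCS3 and SRP19 with the androgen response list. No list was tested as a whole.

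With R1881, 3.6% of genes rose and 2.06% fell in C2, and 6.4% rose and 3.98% fell in F2. Of the genes that rose in sgT33-5, 444 also rose in each of C2, F2 and NT3, and of those that fell, 204 also fell in each. The call of a rise was made in sgT33-5 and not in NT3 for 315 genes, of which 238 had the same sign in NT3, and that of a fall for 362, of which 341 had the same sign.

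Against C2 the difference in response was called for 11 genes (0.0709%), and against F2 for 4 (0.0258%). FKBP5 had a response of 2.61 (SE 0.088) in sgT33-5 and 1.77 (SE 0.086) in C2, a difference of 0.84 (SE 0.120, adjusted p = 0.00541). TIPARP, a mono-ADP-ribosyltransferase that restrains nuclear receptors, had 2.87 in sgT33-5 and 1.80 in C2, a difference of 1.06 (SE 0.190, adjusted p = 0.0291). NR4A1, an orphan nuclear receptor, had 1.48 in sgT33-5 and 0.46 in C2, a difference of 1.02 (SE 0.165, adjusted p = 0.0116). These 3 genes responded more in sgT33-5 than in C2. In NT3 the response was 3.02 for FKBP5, 3.01 for TIPARP and 1.64 for NR4A1, so the larger response was not particular to sgT33-5. GCLC, a glutathione synthesis enzyme, fell in sgT33-5 (-0.41, SE 0.073) and had a positive change in F2 (0.18, SE 0.076), a difference of -0.59 (SE 0.106, adjusted p = 0.0368). PAG1, a membrane adaptor of Src family kinases, fell more in sgT33-5 (-0.95) than in C2 (-0.51) and F2 (-0.46). The NT3 response was -0.44 for GCLC and -0.83 for PAG1. These counts moved widely with the libraries and settings used: against C2 they lay between 1 and 225 when a library was left out, and against F2 between 0 and 228. Of the 11 differences from C2, that of FKBP5 kept its call in all 19 alternatives, and those of the others kept it in 7 to 16.

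**Figure D5:**
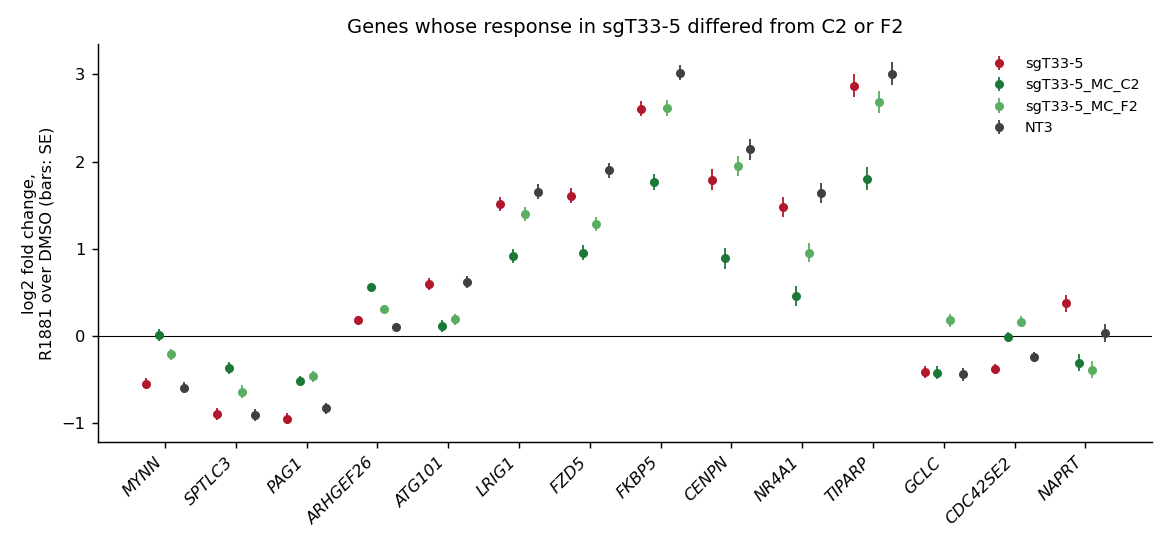
Log2 fold change of R1881 over DMSO, with SE bars, in sgT33-5, sgT33-5_MC_C2, sgT33-5_MC_F2 and NT3 for the 14 genes whose response in sgT33-5 differed from that of C2 or F2 at an adjusted p under 0.05. FKBP5, NR4A1 and TIPARP are higher in sgT33-5 than in C2, and GCLC is below 0 in sgT33-5 and above 0 in F2.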

How the data were processed

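RNA-seq counts of 24 LNCaP libraries were used, 6 of them from sgT33-5. Per the labels' protocols, RNA was selected for polyA and prepared with a stranded kit, and the authors deposited whole-number counts per gene. Per the submitters' processing notes, cutadapt, HISAT2 2.1.0 and GRCh38 (hg38) were used; the counter, annotation and strand setting are not given in the sources used here. The table held 61806 entries, of which 1 has no gene name and 0 counts. A single quasi-likelihood fit (edgeR 4.0.16, R 4.3.3) with TMM scaling, expression filtering by group and robust dispersion covered 8 groups of 3 libraries, and gave 2-sided F tests with Benjamini-Hochberg adjustment over 15519 genes and a threshold of 0.05. A standard error (SE) is the log2 fold change over the square root of F. The fit was also run on simulated counts with known changes. The simulated libraries were independent and had no replicate or line effects, so that run does not cover such effects in the real libraries. Alternatives were RLE scaling, DESeq2 1.42.0, no count filter, fewer libraries, no mitochondrial genes, the replicate number as a block, and each library left out.

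Named genes are a panel of 22, the 15 highest and 15 lowest changes of called genes with at least 5 CPM and no overlap, the 8 largest CPM changes either way, the 8 largest called differences either way from each line, and the 3 strongest of each list either way. Some genes that these rules pick are not reported here. Other list members are named from 25 lists written from general knowledge. The members and lists were chosen with earlier results of these data known. Promoters of 11030 of the 15519 genes were matched by symbol or gene ID. Replicates differed by more than counting error, at 3.71 to 24.2 chi-square units per gene between sgT33-5 libraries. Depth limits the precision of genes with few counts.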

Additional observations from a re-analysis of the deposited data

Results flagged for a closer look

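In 15 cases the R1881 response of sgT33-5 differed from that of C2 or F2 by the interaction test of edgeR at an adjusted p under 0.05. Against C2, 7 genes rose more in sgT33-5. The differences were 1.06 for TIPARP, 1.02 for NR4A1, 0.90 for CENPN, a kinetochore gene, 0.84 for FKBP5, 0.65 for FZD5, 0.60 for LRIG1, a negative regulator of growth factor receptors, and 0.48 for ATG101, an autophagy gene. For the other 4 the log2 change in sgT33-5 was below that in C2: the difference was -0.56 for MYNN, a zinc finger gene, -0.53 for SPTLC3, a subunit of serine palmitoyltransferase, -0.44 for PAG1 and -0.37 for ARHGEF26, a guanine nucleotide exchange factor.

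MYNN fell in sgT33-5 (-0.55) and was near 0 in C2 (0.02). SPTLC3 fell more in sgT33-5 (-0.89) than in C2 (-0.36), as did PAG1 (-0.95 in sgT33-5 and -0.51 in C2). Of the 4, ARHGEF26 was the one that rose, and it rose less in sgT33-5 (0.19) than in C2 (0.56). The call of that rise in sgT33-5 was lost without DMSO replicate 1 and in the fit of only the compared libraries. CENPN rose by 1.79 in sgT33-5 and 0.89 in C2, LRIG1 by 1.52 and 0.92, and FZD5 by 1.61 and 0.96, in that order. In NT3, the response was -0.59 for MYNN, -0.90 for SPTLC3, 0.11 for ARHGEF26, 2.14 for CENPN, 1.66 for LRIG1 and 1.90 for FZD5.

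Against F2, the difference was 0.76 for NAPRT, which makes NAD from nicotinic acid, -0.59 for GCLC, -0.54 for CDC42SE2, a small effector of CDC42, and -0.49 for PAG1. NAPRT had a response of 0.38 in sgT33-5, -0.39 in F2 and 0.03 in NT3. The call of its rise in sgT33-5 was lost without replicate 2 of either treatment. CDC42SE2 had -0.37 in sgT33-5, 0.16 in F2 and -0.24 in NT3. Of 19 alternatives, the difference kept its call in 14 for CDC42SE2, in 8 for PAG1 against F2 and in 7 each for GCLC and NAPRT.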

How the results depend on the processing

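The count of 1936 genes called in sgT33-5 lay between 1321 and 1659 with a library left out, and that of 311 at 2-fold or more between 275 and 321. The count of called genes was 1934 with RLE scaling, 1943 with DESeq2 and 1477 in the fit of only the 6 sgT33-5 libraries. That last fit shared 1381 calls with the main fit. Replicate numbers were not taken to pair libraries: same-numbered R1881 and DMSO libraries of sgT33-5 correlated in their deviations at 0.011, 0.529 and 0.279. As a hint from the data, the closest library of another group bore the same number for 24 of 24 libraries. With the replicate number as a block, 2985 genes were called, and the differences numbered 22 from NT3, 316 from C2 and 260 from F2. Without a count filter they numbered 26, 359 and 401, in the same order. DESeq2 gave 161 from C2 and 153 from F2, the fit of only the compared libraries 27 and 0, and the fit that left out both libraries of low mitochondrial share 3 and 1. Leaving out a library gave 0 in all 12 fits for NT3, 1 to 225 for C2 and 0 to 228 for F2. From C2, the count was 225 without C2 R1881 replicate 3 and 28 without sgT33-5 R1881 replicate 1. It was 1 to 6 without each of C2 DMSO replicates 1 to 3, C2 R1881 replicates 1 and 2, sgT33-5 DMSO replicates 2 and 3 and sgT33-5 R1881 replicate 3. From F2, it was 228 without F2 R1881 replicate 1, 7 without F2 R1881 replicate 2 and 0 to 2 without F2 R1881 replicate 3, any F2 DMSO replicate, any sgT33-5 DMSO replicate or sgT33-5 R1881 replicates 1 or 2. The causes were not tested.

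The TRIM33 response was 0.31 and not called (adjusted p = 0.0502) in the fit of only the compared libraries; its adjusted p lay between 0.000268 and 0.0624 over the alternatives. With a library left out it lay between 0.24 and 0.40, and TRIM33 in sgT33-5 against NT3 lay between -1.16 and -0.99 with R1881 and between -1.05 and -0.90 with DMSO. The share of promoter windows of genes risen at least 2-fold that held the motif was 0.837% with at most 1 mismatch and 14.2% with at most 3, where all genes tested had 0.0503% and 6.6%. Of 126 called genes chosen by the naming rule, TRIM33 not counted, 17 lost their call with some library left out and 0 changed sign. Genes with few counts, and small differences between lines, are limited by depth and by 3 libraries a group.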

Other observations

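Further genes chosen by the same rule rose or fell in sgT33-5. TRPM8, the cold-sensing channel of luminal prostate cells, measured 7.5, 9.53 and 10.7 CPM with R1881, against 1.61, 1.08 and 1.56 CPM with DMSO (log2 2.71, adjusted p = 1.12e-11, edgeR). Its groups lay apart. C1orf116, also known as SARG, rose by 2.04 and CHRNA2, a nicotinic receptor subunit, by 3.39. EHF, an epithelial ETS factor, rose by 0.52 and ABHD2, a lipid hydrolase, by 0.87.

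Among abundant genes that fell, FOLH1, which encodes prostate-specific membrane antigen, measured 1498, 1484 and 1464 CPM with R1881, against 1679, 1787 and 1820 CPM with DMSO (log2 -0.25, adjusted p = 0.000307, edgeR). GRB10, an adaptor that restrains insulin receptor signalling, measured 973, 998 and 913 CPM with R1881, against 1353, 1378 and 1302 CPM with DMSO (log2 -0.48). Neither gene's groups overlapped, though the change in FOLH1 was small. The motor gene KIF5B fell by 0.60 and TP53INP1, a p53-induced autophagy gene, fell by 0.86. DGKH, a diacylglycerol kinase, fell by 0.67 with an adjusted p of 0.0429 in edgeR, and its call was lost when R1881 replicate 1 or 2, or any DMSO replicate, was left out.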
